A study of Mus musculus with 21 samples.

Results

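Muscle stem cells that had lost TSC1 were set against muscle stem cells that had lost Raptor, both from hindlimbs that were never injured. TSC1 is part of the complex that holds the kinase complex mTORC1 down, and Raptor (gene Rptor) is the subunit that brings substrates to mTORC1. The contrast therefore places a genotype meant to raise mTORC1 against a genotype meant to lower it, with no wild-type sample in the difference itself. It uses 4 of the 21 arrays of the series: 2 arrays of 1 pool labelled TSC1 KO QSC and 2 arrays of 1 pool labelled Rptor KO QSC, chosen by their titles (QSC, quiescent satellite cell from a noninjured animal).

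The TSC1 KO mice carried TSC1flox/flox;Pax7CreER/+;Rosa26REYFP/+ and the Rptor KO mice Rptrflox/flox;Pax7CreER/+;Rosa26REYFP/+. Wild-type (WT) mice carried Pax7CreER/+;Rosa26REYFP/+, so every group used here had the Pax7-driven, tamoxifen-dependent Cre and the YFP lineage tracer. These mice were of mixed C57BL6 strain. For some genes 2 further single pools are given as levels: Rptor KO CSC, of the Rptor KO genotype from the hindlimb contralateral to injury, and cMet KO QSC, from noninjured cMetflox/flox;Pax7CreER/+;Rosa26REYFP/+ mice labelled C57BL6 mixed FVB, another strain background. All mice were 3 to 5 months old and at least 2 weeks past tamoxifen, and YFP-positive cells were sorted from hindlimb muscle with no culture. Each pool joined cells of 3 to 4 mice. The error of every difference came from the 3 WT QSC pools and the 3 WT CSC pools (CSC, cells of the hindlimb contralateral to a BaCl2 injury, 2.5 days after it). A single pool stands for each knockout, so genotype and pool cannot be told apart and neither knockout has a replicate check of its own; its 2 arrays are technical repeats.

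As background, mTORC1 is the growth-promoting kinase complex that couples nutrients and growth factors to protein, lipid and nucleotide synthesis and to mitochondrial activity. In resting satellite cells its activity has been tied to a shift from deep quiescence towards a state that is readier to divide. Sterol and fatty acid synthesis through the SREBP factors and mitochondrial gene expression are among its textbook outputs, and lysosomal genes under TFEB are among the programmes it restrains.

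The arrays were Affymetrix Mouse Gene 1.0 ST, hybridised with cDNA from 100 ng of total RNA, and values are log2 RMA signals. Array medians over all probesets lay between 7.03 and 7.21. The 2 TSC1 KO arrays correlated at 0.994 across tested genes and the 2 Rptor KO arrays at 0.982. The second minus the first Rptor KO QSC array correlated across genes at 0.636 with the same difference in WT CSC pool 1 and at 0.621 with that in Rptor KO CSC. The TSC1 KO pool correlated at 0.984 with WT QSC pool 1 and at 0.952 and 0.954 with WT QSC pools 2 and 3, while the WT QSC pools correlated among themselves at 0.966 to 0.972. The TSC1 KO and Rptor KO pools correlated at 0.931.

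The targeted genes were read first. Tsc1 stood at 8.14 and 8.18 on the TSC1 KO arrays, at 9.21 and 9.27 on the Rptor KO arrays and at 8.66, 8.34 and 8.69 in the WT QSC pools. The TSC1 KO arrays were below all WT QSC pools and the Rptor KO arrays above them. The difference of -1.08 ± 0.30 (SE) did not pass the threshold (limma, adjusted p = 0.102). Rptor stood at 9.40 in the TSC1 KO pool and 9.19 in the Rptor KO pool, a difference of 0.21 ± 0.33 (limma, adjusted p = 0.772). A probeset read over the whole transcript does not check a deletion of part of a gene, so neither value tests the labels.

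The genes called higher in the TSC1 KO pool included 10 of 43 tested cell cycle genes, 10 of 73 genes of oxidative phosphorylation, 4 of 20 sterol synthesis genes and 4 of 25 myogenic genes. The genes called lower included 19 of 32 tested microRNA genes of the imprinted Dlk1-Dio3 interval. Of 13956 genes tested with limma, 216 passed an adjusted p of 0.05, which is 1.55% of those tested. Among them 176 were higher in TSC1 KO (1.26%) and 40 were lower (0.287%). Below, rose and fell mean called higher or lower in TSC1 KO than in Rptor KO, not a change from wild type. All 216 differed by at least 2-fold with both TSC1 KO arrays on the same side of both Rptor KO arrays. Without regard to the test, 804 genes (5.76%) met that fold and array criterion in the higher direction and 205 (1.47%) in the lower direction. The median difference of all tested genes was 0.05 on the log2 scale, and the typical SE of a difference was 0.267. These counts rest on the error pools: with the WT QSC pools alone as the error 2 residual degrees of freedom were left and no gene passed in limma, although 1699 had an unadjusted p below 0.05. Leaving out WT QSC pool 1, 2 or 3 gave 560, 378 or 330 higher and 110, 98 or 65 lower genes. Leaving out WT CSC pool 1 gave 88 higher and 29 lower genes, and leaving out WT CSC pool 2 or pool 3 gave 22 and 13 each time.

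Where wild type stood was read for the called genes as a description, since choosing genes by a large difference between the knockouts itself favours wild-type values in between. For 160 of the 176 higher genes (90.9%) the TSC1 KO pool lay above and the Rptor KO pool below all 3 WT QSC pools, and for 38 of the 40 lower genes (95%) the reverse held. Over all 13956 tested genes 2716 (19.5%) had the knockouts outside wild type on opposite sides. Because the called genes were chosen by their difference, their higher shares restate that choice and test nothing. The comparisons of each knockout with WT QSC, which share the WT pools, called far fewer genes with limma at the same threshold: 2 for TSC1 KO (0.0143% of tested genes) and 17 for Rptor KO (0.122%).

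**Figure D1:**
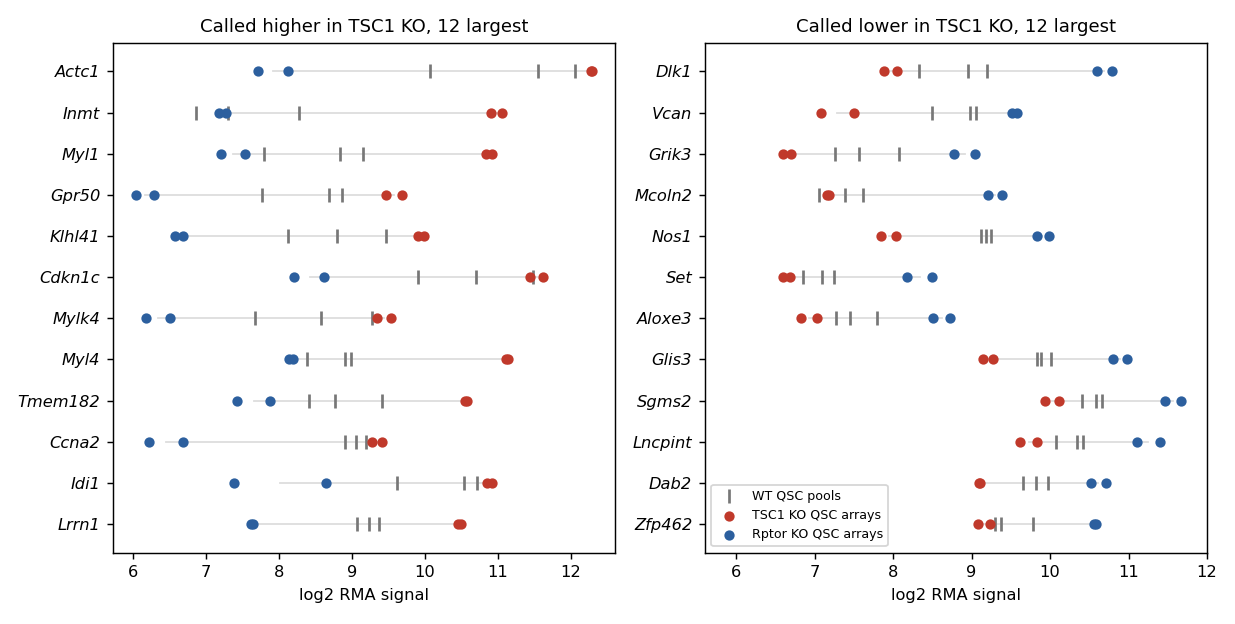
The 12 largest called differences in each direction on the log2 RMA scale, with the 2 TSC1 KO QSC arrays in red, the 2 Rptor KO QSC arrays in blue and the 3 WT QSC pools as grey ticks. In every gene shown the red and blue arrays do not overlap, with Actc1 at 12.27 and 12.29 against 8.13 and 7.71 and Dlk1 at 8.05 and 7.88 against 10.60 and 10.79. The Rptor KO pool means of Gpr50 (6.17) and Mylk4 (6.34) were under the filter level for testing, log2 6.454.

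Muscle structural and differentiation genes made up much of the top of the higher list. Actc1, the cardiac alpha-actin that differentiating muscle also makes, read 12.27 and 12.29 in TSC1 KO, 8.13 and 7.71 in Rptor KO, and 11.55, 10.07 and 12.06 in the WT QSC pools. The Rptor KO arrays were thus far below every WT pool while the TSC1 KO arrays were slightly above, a difference of 4.36 ± 0.73 (20.6-fold; limma, adjusted p = 0.0317). Myl4, an embryonic myosin light chain, showed the other pattern: 11.13 and 11.11 in TSC1 KO against 8.14 and 8.20 in Rptor KO, with WT QSC at 8.90, 8.39 and 8.99. Its difference of 2.95 ± 0.38 (limma, adjusted p = 0.0157) lay mostly above wild type.

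Of 25 tested genes of muscle commitment and differentiation 4 rose and none fell, with a median of 1.01 against 0.05 for all tested genes, and 22 of the 25 differences were positive. Besides Actc1 and Myl4 these were Myh8, the perinatal myosin heavy chain (1.56 ± 0.28, limma, adjusted p = 0.0383), and Acta2, smooth muscle actin (1.73 ± 0.34, limma, adjusted p = 0.0456). Myog, the transcription factor of terminal differentiation, read 10.62 and 10.86 against 6.97 and 7.24, but with WT QSC pools from 8.35 to 10.33 its difference of 3.63 ± 0.76 missed the threshold (limma, adjusted p = 0.0539). The fusion protein gene Mymk (2.92, adjusted p = 0.0663 in limma) also missed it. Myod1, the determination factor, was -0.40 ± 0.41 (limma, adjusted p = 0.633). The determination factor thus did not pass, while contractile genes did. The number called was 7, 9 or 6 without WT QSC pool 1, 2 or 3, 2 without WT CSC pool 1, and 1 without WT CSC pool 2 or pool 3.

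Further muscle genes stood among the 12 largest. Myl1, the fast alkali light chain, read 10.92 and 10.83 against 7.54 and 7.21 (3.50 ± 0.54, limma, adjusted p = 0.0238). Klhl41, a sarcomere-associated Kelch protein, differed by 3.30 ± 0.51, Mylk4, a myosin light chain kinase family member, by 3.10 ± 0.59, and Tmem182, a membrane protein of muscle, by 2.90 ± 0.49. In all 3 of these the Rptor KO arrays were under the lowest WT QSC pool. Actn2, a Z-disc alpha-actinin outside the naming rule and chosen after its values were seen, read 10.01 and 10.27 against 7.51 and 7.66.

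Markers of mature muscle fibre moved with these genes. All 13 tested of 16 fibre markers on the array were higher in TSC1 KO (median 0.94), and Mb (myoglobin) alone passed (1.31 ± 0.26, limma, adjusted p = 0.0461). Next by p were Actn3 (2.00 ± 0.41, limma, adjusted p = 0.0533), Myh1 (1.25 ± 0.28, 0.0649) and Eno3 (1.22 ± 0.29, 0.0733). Acta1 (skeletal actin) and Atp2a1 (the fast fibre calcium pump), outside the naming rule and not called, had differences of 2.79 and 2.56. The fast myosins Myh2 and Myh4 and the light chain Mylpf were too dim to be tested. The mean level of the 13 was 8.67 and 8.72 on the TSC1 KO arrays, 7.55 and 7.61 on the Rptor KO arrays, and 8.19, 7.58 and 8.44 in the WT QSC pools. The number of fibre markers called was 3, 6 or 2 without WT QSC pool 1, 2 or 3, and 0 without WT CSC pool 2 or pool 3. The part of fibre RNA in the differences was not tested. In these sorted bulk samples, fewer cells of a type and less RNA per cell cannot be told apart.

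Satellite cell identity genes did not pass. Of 14 markers none was called in either direction, with 13 positive differences and a median of 0.55. Pax7, the transcription factor that defines these cells, read 12.02 and 12.15 against 11.60 and 11.82, with WT QSC at 12.10, 11.30 and 11.09 (0.38 ± 0.43, limma, adjusted p = 0.670). Calcr, the calcitonin receptor linked to quiescence, differed by 0.63 ± 0.39 (limma, adjusted p = 0.415) and Myf5 by 1.01 ± 0.42 (0.233). Both sorted pools therefore carried the defining markers of satellite cells at high signal. Of the other cell types, endothelial markers had a median of -0.10 over 16 genes with none called, and a mean level of 8.85 in TSC1 KO and 9.03 in Rptor KO. Macrophage and monocyte markers had a median of -0.34 over 14 with none called, at 6.98 and 7.36. Markers of fibro-adipogenic progenitors had a median of -0.02 over 12 with Cd55 called higher, at 9.38 and 9.19, and those of pericytes and smooth muscle 0.39 over 11 with Acta2 called higher, at 9.54 and 8.98. Neutrophil markers had a median of -0.62 over 5 genes, all negative and none called, at 6.51 and 7.24, with Ngp the lowest at -1.49 (limma, adjusted p = 0.117). Adipocyte markers had -0.41 over 4 and lymphocyte markers -0.27 over 3, again all negative and none called. Their part in the results was not tested.

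Genes of cell division separated the pools clearly and the Rptor KO pool was the low pool. Ccna2, cyclin A2 of S phase and mitosis, read 9.28 and 9.41 in TSC1 KO, 6.22 and 6.69 in Rptor KO, and 9.19, 8.91 and 9.05 in the WT QSC pools. The WT pools were close to the TSC1 KO arrays and far from the Rptor KO arrays, and the difference was 2.89 ± 0.23 (7.43-fold; limma, adjusted p = 0.0043). Mki67, the proliferation marker, read 9.64 and 9.64 against 7.13 and 6.77, with WT QSC at 9.18, 8.96 and 9.19 (2.69 ± 0.23; limma, adjusted p = 0.0043).

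In the list of cell cycle and DNA replication genes 10 of 43 tested rose, none fell, and the median was 0.52. Beside Ccna2 and Mki67 these were the topoisomerase Top2a (2.10 ± 0.22), cyclin B2 gene Ccnb2 (1.70 ± 0.25), the checkpoint kinase Bub1 (2.51 ± 0.28), the mitotic kinesins Kif11 (1.93 ± 0.20) and Kif20a (1.14 ± 0.21), and the spindle and cytokinesis genes Ect2 (2.14 ± 0.27), Prc1 (1.74 ± 0.31) and Tpx2 (1.85 ± 0.26). Against the WT QSC mean the Rptor KO pool was lower by 0.83 (Kif20a) to 2.59 (Ccna2), and the TSC1 KO pool was higher by 0.21 (Top2a) to 0.61 (Tpx2). The Rptor KO pool from hindlimbs contralateral to injury was not low in these genes: it read 9.47 for Ccna2 and 9.42 for Mki67, and its mean over the 43 genes was 8.33 against 8.02 in TSC1 KO QSC and 7.20 in Rptor KO QSC. Without WT CSC pool 2 or pool 3 the count called was 6. The Rptor KO pool means of Bub1 (5.21), Prc1 (6.21), Kif11 (6.36) and Top2a (6.40) were under the filter level for testing, log2 6.454. Ccna2 (6.45) was at that level. These genes were tested because other pools were higher, so the sizes of their differences rest on low readings. Ect2 (6.46), Kif20a (6.53), Mki67 (6.95) and Ccnb2 (7.82) were above the filter level in Rptor KO.

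Of the regulators of G1, Cdkn1c, the inhibitor p57, was higher in TSC1 KO: it read 11.44 and 11.61 against 8.62 and 8.21, with WT QSC at 10.70, 9.90 and 11.48. An inhibitor of the cell cycle was thus higher in the same contrast as the cyclins (3.11 ± 0.57, limma, adjusted p = 0.0392). Against the WT QSC mean Cdkn1c differed by -2.28 in Rptor KO and by 0.83 in TSC1 KO, so the Rptor KO pool was farther from wild type. Rb1, the retinoblastoma protein gene, rose by 1.41 ± 0.23 (limma, adjusted p = 0.0306). Cyclin D1 gene Ccnd1 differed by 1.41 ± 0.34 and missed the threshold (limma, adjusted p = 0.0711), and Cdkn1b, the inhibitor p27, differed by 0.10 ± 0.23 (0.850). In the list of G1 cyclins and CDK inhibitors 2 of 15 rose, with a median of 0.76. The number was 6 or 4 without WT QSC pool 1 or 2, 3 without WT QSC pool 3, 1 without WT CSC pool 1, and 0 without WT CSC pool 2 or pool 3.

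The sterol synthesis list had the largest median of the lists in the plot of differences by gene list. The enzymes that build cholesterol are known targets of SREBP2, whose activity mTORC1 is known to favour. Of 20 tested genes 4 rose, none fell, 13 were at least 2-fold higher with arrays apart, and 19 had a positive difference, with a median of 1.61. The number called was 10, 8 or 11 without WT QSC pool 1, 2 or 3, and 1 without WT CSC pool 2 or pool 3.

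The mevalonate steps come first in the pathway. Hmgcs1, which makes HMG-CoA, differed by 1.74 ± 0.41 (limma, adjusted p = 0.0700), and Idi1, the isomerase that makes the allylic prenyl unit, read 10.85 and 10.92 in TSC1 KO, 8.65 and 7.38 in Rptor KO, and 10.53, 10.71 and 9.62 in WT QSC. The Rptor KO arrays disagreed by more than 1 log2 unit with each other, yet both were under every WT pool (2.88 ± 0.47; 7.34-fold; limma, adjusted p = 0.0306). Fdps, farnesyl diphosphate synthase, had a mean of 9.84 in TSC1 KO against 8.13 and 8.14 on the Rptor KO arrays (1.71 ± 0.24, limma, adjusted p = 0.0190), with the WT QSC pools from 9.60 to 9.83. In the later sterol ring steps Nsdhl rose by 2.05 ± 0.27 (limma, adjusted p = 0.0164) and Hsd17b7 by 1.92 ± 0.38 (0.0477). Cyp51 (2.21 ± 0.47, limma, adjusted p = 0.0583) and Msmo1 (2.37 ± 0.49, 0.0533) just missed. Ebp, the sterol isomerase, was the exception in sign at -0.59 ± 0.25 (limma, adjusted p = 0.241). Srebf2, which encodes the factor itself, differed by only 0.21 ± 0.32 (limma, adjusted p = 0.757).

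The mean level of the 20 sterol genes was 9.82 and 9.93 on the TSC1 KO arrays and 8.49 and 8.52 on the Rptor KO arrays. The WT QSC pools stood at 9.58, 9.49 and 9.0 and the Rptor KO CSC pool at 8.36. Both Rptor KO pools were thus below all WT QSC pools. In fatty acid synthesis 2 of 17 genes rose (median 0.57), the desaturase gene Scd2 (2.23 ± 0.41, limma, adjusted p = 0.0383) and the elongase gene Elovl6 (1.89 ± 0.33, 0.0358), while Srebf1 was at 0.00 ± 0.27. None of the 17 was called when any WT CSC pool was left out, and 4 or 5 were without WT QSC pool 1 or 3.

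Promoters are shown for 3 of the called sterol genes and, as examples, for Ccnb2 and Kif11 of the called cell cycle genes, because these genes were called together. They are RefSeq windows (GRCm38.p6) from 250 bases before to 50 after the start, 5′ to 3′ on the gene's strand, with every CCAAT (either strand) in capitals, and in the cell cycle genes every TTTGAA (the CHR element, either strand) as well. Fdps, Ccna2, Kif20a and Tpx2 had no promoter of that length in the table.
Idi1 (chr13:8885356-8885655, plus strand): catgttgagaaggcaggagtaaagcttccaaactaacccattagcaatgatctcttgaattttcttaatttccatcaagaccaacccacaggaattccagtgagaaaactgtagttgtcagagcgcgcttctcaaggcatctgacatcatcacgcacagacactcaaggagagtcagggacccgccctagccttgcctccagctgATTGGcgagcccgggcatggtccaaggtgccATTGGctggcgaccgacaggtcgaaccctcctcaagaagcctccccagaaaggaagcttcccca
Nsdhl (chrX:72918271-72918570, plus strand): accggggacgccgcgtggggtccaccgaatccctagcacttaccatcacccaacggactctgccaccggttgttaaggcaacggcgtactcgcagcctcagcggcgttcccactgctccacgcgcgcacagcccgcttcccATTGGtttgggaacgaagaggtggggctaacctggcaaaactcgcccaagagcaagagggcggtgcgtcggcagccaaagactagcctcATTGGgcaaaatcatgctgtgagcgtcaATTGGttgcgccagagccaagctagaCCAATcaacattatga
Hsd17b7 (chr1:169969156-169969455, minus strand): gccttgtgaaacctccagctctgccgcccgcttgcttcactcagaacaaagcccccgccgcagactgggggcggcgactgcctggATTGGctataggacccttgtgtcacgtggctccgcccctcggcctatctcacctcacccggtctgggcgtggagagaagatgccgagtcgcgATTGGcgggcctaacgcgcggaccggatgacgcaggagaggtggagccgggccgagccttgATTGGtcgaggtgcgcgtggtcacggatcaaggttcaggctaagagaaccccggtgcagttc
Ccnb2 (chr9:70421505-70421804, minus strand): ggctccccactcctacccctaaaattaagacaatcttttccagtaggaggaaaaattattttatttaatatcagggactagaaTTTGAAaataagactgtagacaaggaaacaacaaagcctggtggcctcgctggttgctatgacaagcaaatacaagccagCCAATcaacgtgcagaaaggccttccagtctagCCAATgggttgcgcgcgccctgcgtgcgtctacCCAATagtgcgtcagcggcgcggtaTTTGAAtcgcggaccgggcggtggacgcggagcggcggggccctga
Kif11 (chr19:37376132-37376431, plus strand): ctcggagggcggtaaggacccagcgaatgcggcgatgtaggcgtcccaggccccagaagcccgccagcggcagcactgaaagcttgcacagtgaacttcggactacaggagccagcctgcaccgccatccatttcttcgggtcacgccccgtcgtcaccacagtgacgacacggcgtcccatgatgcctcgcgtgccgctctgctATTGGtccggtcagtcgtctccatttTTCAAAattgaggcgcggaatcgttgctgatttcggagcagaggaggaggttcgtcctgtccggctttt
A CCAAT was present in 15 of 16 sterol gene promoters (93.8%), in 26 of 35 cell cycle gene promoters (74.3%) and in 37.9% of all 27025 promoters. TTTGAA was present in 15 of the 35 cell cycle promoters (42.9%) against 18.1% of all. The sterol regulatory element, searched as TCACNCCAC on both strands, was present in 1 of the 16 sterol promoters (6.25%) against 1.22% of all. Of the called cell cycle genes whose windows are not printed, TTTGAA occurred 2 times in Mki67, 2 in Top2a, 2 in Ect2, 1 in Prc1 and 0 in Bub1, and CCAAT 3, 6, 3, 1 and 2 times. A match is only a run of letters in this window.

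**Figure D2:**
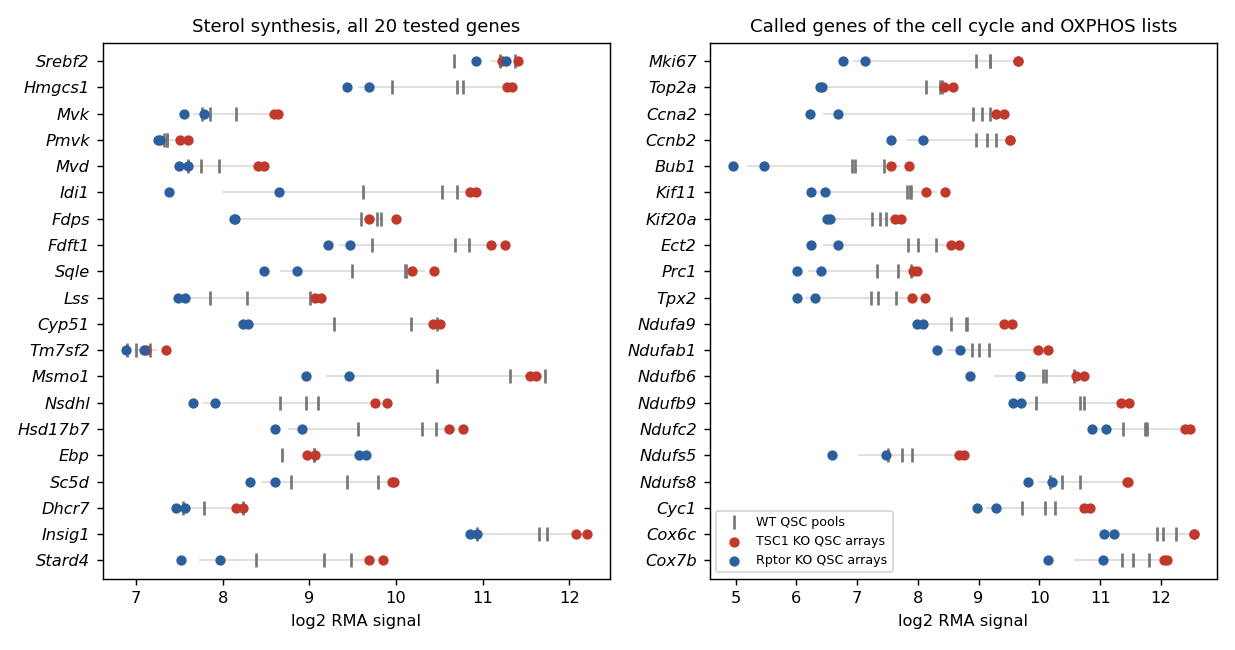
Left, all 20 tested sterol synthesis genes with Srebf2 first, the enzymes in pathway order and Insig1 and Stard4 last; right, the called genes of the cell cycle and oxidative phosphorylation lists. Axes are log2 RMA signal, red points are TSC1 KO QSC arrays, blue points Rptor KO QSC arrays and grey ticks the 3 WT QSC pools; blue lies left of red in every row except Ebp, where it lies right, and Srebf2, where the arrays overlap.

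Some respiratory chain genes passed, all in the higher direction. Of 73 tested nuclear-encoded genes of oxidative phosphorylation 10 rose and none fell, 69 differences were positive and the median was 0.69. Complex I supplied 7 of them: Ndufa9, Ndufab1, Ndufb6, Ndufb9, Ndufc2, Ndufs5 and Ndufs8, with differences from 1.40 (Ndufb6) to 1.78 (Ndufb9). Cyc1 of complex III rose by 1.65 ± 0.28 (limma, adjusted p = 0.0330), and Cox6c and Cox7b of complex IV by 1.41 ± 0.23 (0.0306) and 1.48 ± 0.28 (0.0419). For Ndufs8, as an example, the TSC1 KO arrays read 11.44 and 11.46, the Rptor KO arrays 9.81 and 10.20, and the WT QSC pools 10.67, 10.37 and 10.17. The Rptor KO arrays disagreed more for Cox7b (11.05 and 10.14), Ndufb6 (9.68 and 8.86) and Ndufs5 (7.47 and 6.59). They were closer for others, such as Ndufa9 (8.08 and 7.98). The mean level of the 73 was 10.37 in TSC1 KO and 9.63 in Rptor KO, with the WT QSC pools at 9.95, 9.77 and 9.93, so the TSC1 KO pool was farther from wild type. The number called was 21 or 20 without WT QSC pool 1 or 2, 3 without WT CSC pool 1, and 0 without WT CSC pool 2 or pool 3. With the second array of each pool alone 5 were called. The fibre marker level given above moved in the same direction, and its part was not tested.

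Cox8b, a heart and muscle isoform of a complex IV subunit, gave the largest departure from wild type in TSC1 KO. It read 12.06 and 11.82 in TSC1 KO, 9.47 and 9.51 in Rptor KO, and 8.02, 7.64 and 7.96 in WT QSC. Both knockouts were above all WT pools, TSC1 KO by 4.07 ± 0.21 (limma, adjusted p = 0.000136) and Rptor KO by 1.62 ± 0.21 (0.0266), and they differed from each other by 2.45 ± 0.25 (0.00862). Cox8b and Ryr3, a ryanodine receptor (9.69 and 9.81 against 7.57 and 7.71; WT QSC 7.92, 7.59 and 7.36), were the only 2 genes called in TSC1 KO against WT QSC. They were chosen after their values were seen.

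In the TCA cycle list 2 of 23 genes rose (median 0.72): Idh1, the cytosolic NADP-dependent isocitrate dehydrogenase (2.64 ± 0.37, limma, adjusted p = 0.0190), and Sucla2, a subunit of succinyl-CoA ligase (1.13 ± 0.21, 0.0420). Idh1 was on the list, but as a cytosolic enzyme it is not a step of the mitochondrial cycle. Of the mitochondrial ribosome 3 of 75 rose, Mrpl18, Mrpl36 and Mrpl42, with a median of 0.37. Ppargc1a, the coactivator PGC-1 alpha that promotes mitochondrial gene expression, read 10.13 and 10.14 against 8.15 and 8.13, with WT QSC at 8.37, 8.05 and 7.65. Only TSC1 KO stood apart from wild type there, and the difference of 1.99 ± 0.44 missed the threshold (limma, adjusted p = 0.0599). Neither list had a called gene without WT CSC pool 2 or pool 3, each had 1 without WT CSC pool 1, and without WT QSC pool 1 or 2 the TCA cycle had 4 or 3 and the mitochondrial ribosome 5 or 6. Of the proteasome 1 of 34 rose, Psma4, with a median of 0.58. The proteasome count was 3 or 2 without WT QSC pool 2 or 3 and 0 when any single WT CSC pool was left out.

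**Figure D3:**
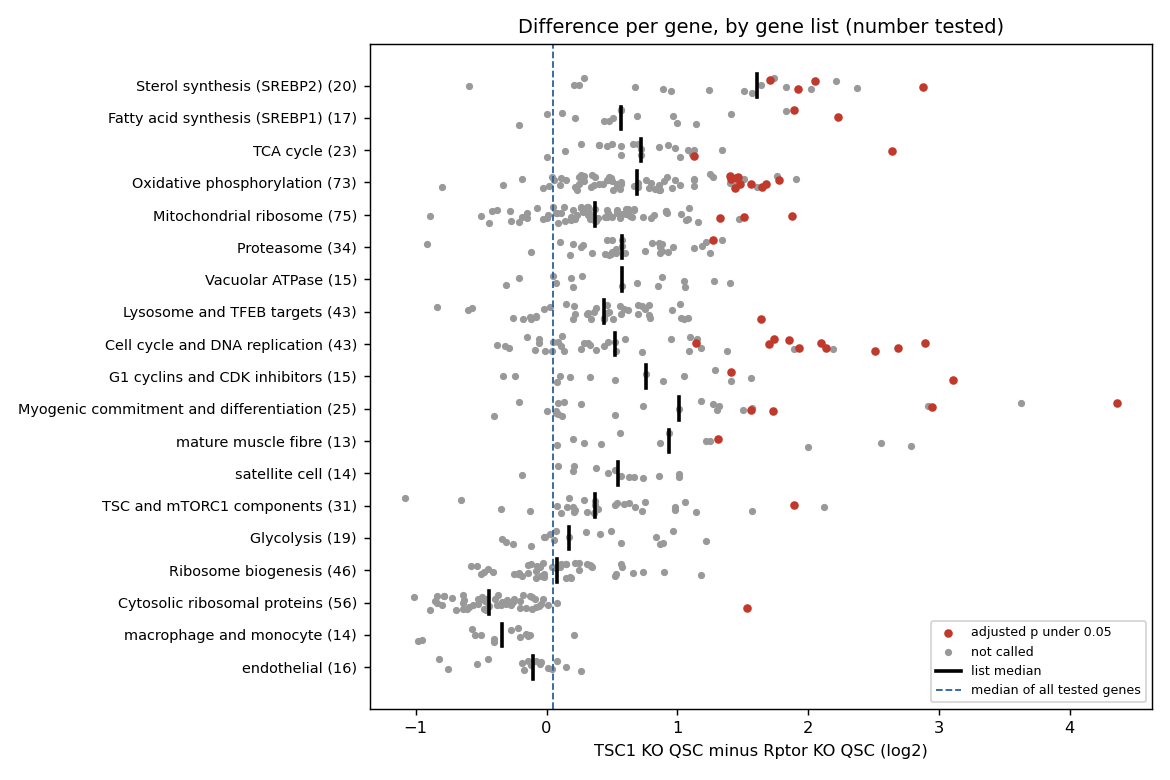
Each point is the TSC1 KO QSC minus Rptor KO QSC difference (log2) of a tested gene, by gene list; called genes are red, black bars are list medians and the dashed line is the median of all tested genes (0.05). Sterol synthesis has a median of 1.61, myogenic genes 1.01 and cytosolic ribosomal proteins -0.44.

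Ribosomal protein genes leaned the other way. The 56 tested genes of the cytosolic ribosome had a median of -0.44, and 53 of the differences were negative, although none was called lower. Their mean level was 11.88 and 11.89 on the TSC1 KO arrays, 12.34 and 12.22 on the Rptor KO arrays, and 12.05 to 12.16 in the WT QSC pools. The pools lay outside wild type on opposite sides in 25 of the 56, where 19.5% of all tested genes did so. Rps27l, a paralogue of Rps27, alone rose (1.53 ± 0.26, limma, adjusted p = 0.0333). Ribosomal protein genes have many near-identical copies in the genome, so probes may read more than a single gene. With each array centred on its median the list's median was -0.33, and with the first array of each pool -0.53.

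Among TSC and mTORC1 components and among lysosomal genes 1 gene each was called higher, where 1.26% of all tested genes were. Differences were positive for 27 of 31 and 33 of 43 of them, against 54.4% of all tested genes. The mean level of the lysosomal list was 9.66 in TSC1 KO, 9.26 in Rptor KO and 9.41, 9.05 and 9.13 in the WT QSC pools. Of 31 tested TSC and mTORC1 components only Sesn1, a sestrin that restrains mTORC1, rose (10.09 and 10.40 against 8.28 and 8.43; 1.89 ± 0.33, limma, adjusted p = 0.0358), and the median was 0.37. The number called was 6, 3 or 2 without WT QSC pool 1, 2 or 3, and 0 when any single WT CSC pool was left out. Of 26 mTORC1 substrates and translation initiation factors none passed (median 0.09). Of 43 lysosomal and TFEB target genes Lipa, lysosomal acid lipase, alone rose (1.64 ± 0.28, limma, adjusted p = 0.0333), with a median of 0.44 and none called when any single WT CSC pool was left out, and the factor gene Tfeb was at -0.12 ± 0.23. In the vacuolar ATPase none of 15 passed (median 0.58). In ATF4 targets and amino acid supply the serine synthesis enzyme Psat1 (1.34 ± 0.23) and the glycine transporter Slc6a9 (2.20 ± 0.38) were higher in TSC1 KO than in Rptor KO, 2 of 31. Psat1 stood at 9.67 in TSC1 KO, inside the WT QSC range of 9.49 to 9.68, and at 8.33 in Rptor KO. Slc6a9 stood at 10.58 and 8.38, on either side of the WT QSC range of 9.23 to 10.01.

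Gpnmb, a lysosomal glycoprotein under MiT/TFE control, was high in both knockouts, which did not differ beyond the error. Chosen after its values were seen, it read 11.76 and 11.72 in TSC1 KO, 11.81 and 11.70 in Rptor KO, 11.96 in the Rptor KO CSC pool, and 9.88, 9.37 and 9.10 in the WT QSC pools. The cMet KO QSC pool stood at 9.99. Against WT QSC the Rptor KO difference of 2.31 ± 0.30 passed (limma, adjusted p = 0.0329) and the equally large TSC1 KO difference of 2.29 ± 0.30 did not (0.0705). The difference between the knockouts was -0.02 ± 0.37.

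Several lists showed no called member in either direction in limma: ribosome biogenesis (46 genes, median 0.08), glycolysis (19, median 0.17), hypoxia targets (21, median 0.07), aminoacyl-tRNA synthetases (18, median 0.23), autophagy (31, median 0.24), immediate early genes (36, median 0.16), interferon response (25, median 0.20) and class II antigen presentation (6, median -0.52). A p that misses the threshold does not show that these genes were alike in the pools. The SE of a typical difference, 0.267, sets what these arrays could show.

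Among the genes lower in TSC1 KO, 21 of 40 lay on chromosome 12, where 500 genes were tested. All 21 belong to the imprinted interval from Dlk1 to Dio3 (chr12:109452485-110281097, GRCm38), in which the paternal chromosome expresses Dlk1, Rtl1 and Dio3 and the maternal chromosome expresses noncoding RNAs and a large set of microRNAs. This interval lies outside the rule for named genes and was taken up after its values were seen. The interval held 47 genes with a value, 40 of them microRNA genes, of which 32 passed the filter. The probeset of a microRNA gene does not tell which arm was present.

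For the 6 microRNA genes of the interval with the most negative difference among those that passed the filter, in order of position on the chromosome, and for Mir222 elsewhere, the mature sequences from RefSeq (GRCm38.p6) are shown with the seed, bases 2 to 8, in capitals.
mmu-miR-341-5p: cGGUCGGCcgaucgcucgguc
mmu-miR-341-3p: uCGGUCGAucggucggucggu
mmu-miR-380-5p: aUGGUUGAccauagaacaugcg
mmu-miR-380-3p: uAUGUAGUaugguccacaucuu
mmu-miR-323-5p: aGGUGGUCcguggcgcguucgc
mmu-miR-323-3p: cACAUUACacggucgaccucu
mmu-miR-134-5p: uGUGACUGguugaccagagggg
mmu-miR-134-3p: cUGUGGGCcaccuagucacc
mmu-miR-485-3p: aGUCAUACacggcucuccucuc
mmu-miR-377-5p: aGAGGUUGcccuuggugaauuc
mmu-miR-377-3p: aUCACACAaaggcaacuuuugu
mmu-miR-222-3p: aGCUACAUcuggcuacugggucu
No seed was shared: the 37 mature sequences of the 19 called microRNA genes carried 37 different seeds, so they shared a position in the genome and no identical seed.

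Dlk1, a transmembrane Notch-like protein known in muscle growth, read 8.05 and 7.88 in TSC1 KO, 10.60 and 10.79 in Rptor KO, and 9.19, 8.33 and 8.95 in WT QSC. The 2 knockouts lay on either side of all WT pools (-2.73 ± 0.37; 6.62-fold; limma, adjusted p = 0.0164). Mir380 read 6.01 and 6.14 against 10.07 and 9.71, with WT QSC at 8.03, 7.51 and 8.62 (-3.81 ± 0.49, limma, adjusted p = 0.0157), the largest negative difference among all tested genes. Mir485 read 7.94 and 8.28 against 10.81 and 10.75 (-2.67 ± 0.24, limma, adjusted p = 0.0043), and Mir134 9.08 and 9.28 against 11.24 and 11.82 (-2.35 ± 0.25, 0.00862). The arrays of the knockouts were apart in each of these. Both TSC1 KO readings of Mir380 were under the filter level for testing, log2 6.454. The TSC1 KO pool means of the called genes Mir541 (6.02), Mir543 (6.14), Mir376b (6.32) and DQ267101 (5.85) were under it as well. So were those of the uncalled Mir411 (6.20), Mir370 (6.24) and Mir136 (6.34). These genes were tested because other pools were higher, so the sizes of their differences rest on low readings.

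Of the 32 tested microRNA genes 19 were called lower and none higher, all 32 differences were negative and the median was -1.84. The mean level was 7.44 and 7.55 on the TSC1 KO arrays, 9.41 and 9.23 on the Rptor KO arrays, 8.30, 7.92 and 8.38 in the WT QSC pools, 8.12 in cMet KO QSC, 8.42 in Rptor KO CSC and 7.49 as the mean of the WT CSC pools. The WT CSC mean was thus as low as the TSC1 KO QSC pool, also at 7.49. For 27 of the 32 the knockouts lay outside wild type on opposite sides, where 19.5% of all tested genes did so. The interval was chosen after its values were seen, so this share restates that choice and tests nothing. Of the other genes in the interval DQ267101 was called (-2.02 ± 0.39, limma, adjusted p = 0.0456), while the maternally expressed noncoding RNAs Meg3 (10.72 and 10.81 against 12.08 and 12.27; -1.41 ± 0.48, 0.166) and Rian (-1.53 ± 0.44, 0.116) and the retrotransposon-derived gene Rtl1 (-0.94 ± 0.25, 0.0962) were not. With WT CSC pool 2 or pool 3 left out, 8 microRNA genes were called.

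Small RNA genes elsewhere leaned the same way but less. Of 107 tested microRNA genes outside the interval Mir222 (8.10 and 8.32 against 11.31 and 10.97; -2.93 ± 0.42, limma, adjusted p = 0.0197) and Mir26b (-1.20 ± 0.22, 0.0382) were called lower, and the median was -0.57. The 50 tested small nucleolar RNA genes had none called and a median of -0.73. In both classes WT QSC pool 1, the wild-type pool most correlated with TSC1 KO, was close to TSC1 KO: the mean level outside the interval was 7.47 in TSC1 KO, 7.57 in WT QSC pool 1, 7.97 and 7.86 in WT QSC pools 2 and 3, and 8.19 in Rptor KO. For the small nucleolar RNA genes TSC1 KO was at 9.13, the WT QSC pools at 9.16, 9.60 and 9.98, and Rptor KO at 9.83, inside the WT range. The part of a general shift of small RNA signals in the interval's differences was not tested.

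**Figure D4:**
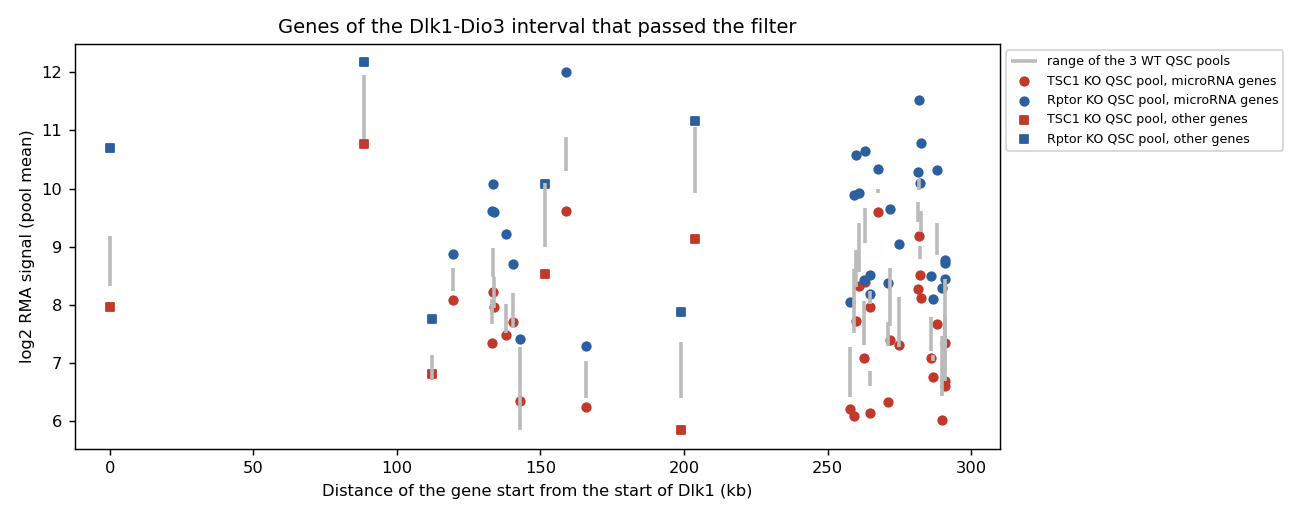
Genes of the Dlk1-Dio3 interval that passed the filter, by distance of the gene start from the start of Dlk1 (kb); the y axis is the pool mean log2 RMA signal, with TSC1 KO QSC in red, Rptor KO QSC in blue (circles microRNA genes, squares other genes) and grey bars for the range of the 3 WT QSC pools. Blue lies above red for all 32 microRNA genes and all 6 other genes.

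The other large decreases were in genes of varied kinds. Vcan, the proteoglycan versican, read 7.08 and 7.50 against 9.58 and 9.52, with WT QSC at 8.49, 9.05 and 8.98 (-2.26 ± 0.30, limma, adjusted p = 0.0157). Mcoln2, an endolysosomal cation channel, read 7.18 and 7.15 against 9.39 and 9.21, with the TSC1 KO arrays inside the WT QSC range of 7.06 to 7.61; here the Rptor KO pool alone stood apart from wild type. Nos1, neuronal nitric oxide synthase, read 7.85 and 8.04 against 9.83 and 9.98, with the WT QSC pools close together between. Grik3, a kainate receptor subunit, differed by -2.26 ± 0.43, Aloxe3, a lipoxygenase, by -1.69 ± 0.31, and the transcription factor gene Glis3 by -1.68 ± 0.21. Sgms2, a sphingomyelin synthase, Lncpint, a noncoding RNA, Dab2, an endocytic adaptor, and the zinc finger gene Zfp462 differed by -1.54, -1.53, -1.52 and -1.41.

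Set, a histone chaperone and phosphatase inhibitor, was also lower (6.69 and 6.59 against 8.18 and 8.50; -1.69 ± 0.30, limma, adjusted p = 0.0358). The WT QSC pools read 6.85, 7.09 and 7.24 for Set, and the Rptor KO CSC pool 8.14. Against the WT QSC mean the Rptor KO pool differed by 1.28 and the TSC1 KO pool by -0.42, so the Rptor KO pool was farther from wild type. Set lies within 5 Mb of the floxed Tsc1 gene on chromosome 2, where it was the only called gene of 190 tested. Within 5 Mb of Rptor on chromosome 11, Mxra7 was the only called gene of 172 and was higher in TSC1 KO. Over all tested genes 1.55% were called. The part of linked sequence at the floxed loci was not tested.

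Of the higher genes outside the lists, Inmt, an indolethylamine N-methyltransferase, read 11.05 and 10.91 against 7.28 and 7.18, with WT QSC at 8.28, 7.30 and 6.87. Only the TSC1 KO pool stood above wild type there (3.75 ± 0.52, limma, adjusted p = 0.0190). Gpr50, an orphan receptor of the melatonin receptor family, read 9.69 and 9.46 against 6.29 and 6.04, with WT QSC at 8.69, 7.77 and 8.87, so that Rptor KO was far below and TSC1 KO above wild type (3.41 ± 0.44, 0.0157). Lrrn1, a leucine-rich repeat membrane protein, was called against WT QSC in Rptor KO and differed by 2.85 ± 0.24 between the knockouts (limma, adjusted p = 0.0043). Gal, the neuropeptide galanin, chosen after its values were seen, read 13.27 and 13.19 in TSC1 KO and 13.13, 13.05 and 13.12 in the WT QSC pools but 11.45 and 11.11 in Rptor KO (1.95 ± 0.23, limma, adjusted p = 0.0130).

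Among the panel of regulators fixed for naming, Myc (0.18 ± 0.28), Hif1a (0.19 ± 0.24), Atf4 (0.32 ± 0.21), Foxo1 (0.04 ± 0.33), Foxo3 (-0.17 ± 0.37) and Met (0.16 ± 0.23) did not pass. Each SE was larger than its difference except for Atf4.

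**Figure D5:**
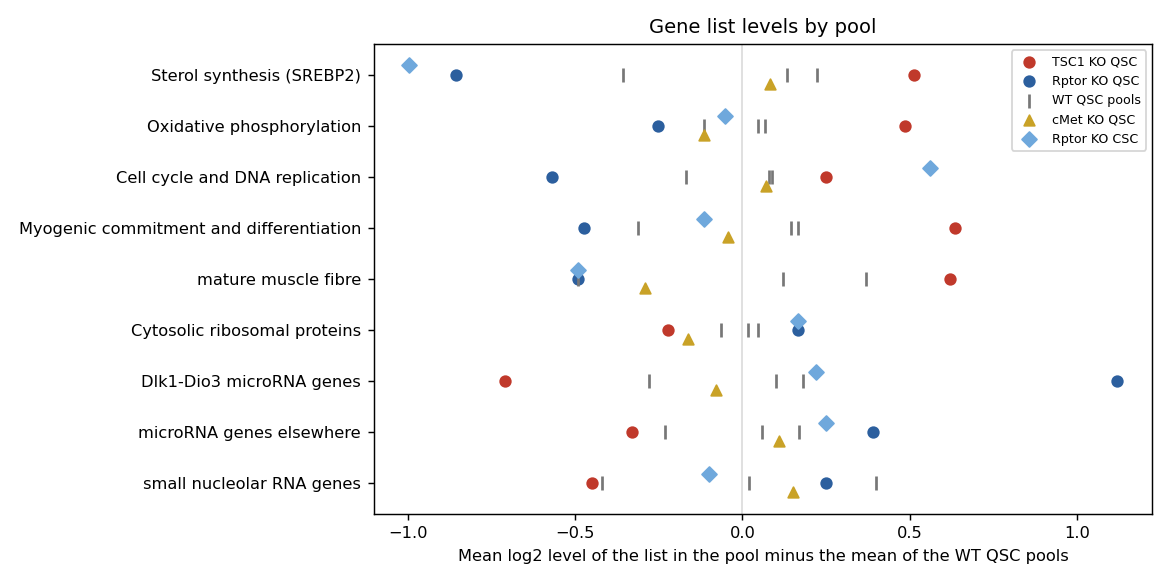
Mean log2 level of 9 gene groups in single pools, as the difference from the mean of the 3 WT QSC pools (grey ticks); TSC1 KO QSC red, Rptor KO QSC dark blue, cMet KO QSC gold and Rptor KO CSC light blue. TSC1 KO lies above and Rptor KO QSC below all WT QSC pools for sterol, OXPHOS, cell cycle and myogenic genes, and the order is turned for the Dlk1-Dio3 microRNA genes.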

How the data were processed

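RNA of sorted YFP-positive muscle cells was measured on whole-transcript Affymetrix mouse arrays (Mouse Gene 1.0 ST). The deposited values are log2 signals per probeset, made by the authors with Affymetrix Expression Console and RMA per the submitters' processing notes. Their versions, and any genome build, were not given in the sources used here. RMA gives every array the same intensity distribution before summarising, so a shift shared by most genes would not be seen.

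Of 35556 probesets 21789 had 1 gene symbol in the platform annotation, 1621 had several and 12146 were not listed; only the first kind was used, with the brightest probeset kept for each of 19938 genes. Arrays of 1 pool were averaged. Genes whose mean over pools was above the 30th percentile (log2 6.454) were tested, 13956 in all. limma 3.58.1 in R 4.3.3 was fitted with a mean for each of 8 groups over 12 pools (4 residual and 5.01 prior degrees of freedom), and p-values were adjusted by Benjamini-Hochberg over all tested genes, with a threshold of 0.05. The fit was tested on simulated data. The number of arrays limits the precision, and p-values measure only the spread between wild-type pools, which the labels describe as pools of separate mice.

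Named genes were Tsc1 and Rptor, the 12 largest called differences in each direction (no predicted genes, microRNAs or small nucleolar RNAs), called members and up to 4 members with the smallest p of each list, and a panel of regulators. The members and lists were chosen with earlier results of these data known. Alternatives covered normalization, the filter, the probeset rule, the variance model, the use of repeat arrays, the error pools and the replicate number of the wild-type pools. Same-numbered WT QSC and WT CSC pools had deviations from their group means that correlated at 0.319, -0.0331 and -0.0342, so the numbers were not taken to pair them.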

Additional observations from a re-analysis of the deposited data

How the results depend on the processing

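The counts of called genes moved with the error estimate. Of the 216 called genes 109 were followed through the alternatives, and none of these changed sign. Most alternatives could not have changed it. Settings that alter only the error or the filter leave the difference of a gene as it is. All called genes had arrays apart, so single-array settings could not turn their sign either. No median changed sign among the lists that were followed, but settings that alter only the error can move a median only through which genes are tested. Other lists, among them autophagy, glycolysis and the vacuolar ATPase, were not followed. Of the uncalled genes named, 5 with differences near 0 did change sign: Srebf1 ranged from -0.13 to 0.13, Cdkn1b from -0.02 to 0.42, Foxo1 from -0.08 to 0.15, Gpnmb from -0.11 to 0.10 and Met from -0.11 to 0.42. The main counts were 176 higher and 40 lower. They were 76 and 25 with no filter, 266 and 63 with the first array of each pool, 85 and 22 with the second, and 988 and 283 with all arrays and the pool as a random block (duplicateCorrelation 0.598). Counting every array as a replicate, which takes repeat arrays for separate pools, gave 2812 and 1466. Quantile normalization again gave 62 lower genes. With the WT QSC pools alone as the error, limma called 0 higher and 0 lower, with 1699 genes at an unadjusted p below 0.05. Leaving out each WT pool in turn gave 22 to 560 higher and 13 to 110 lower genes; without WT CSC pool 2 or 3, 30 of the 109 called genes followed through the alternatives passed.

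Centring each array on its median moved the median of all genes from 0.05 to 0.16, that of the mitochondrial ribosome to 0.49 and that of cytosolic ribosomal proteins to -0.33. It raised the share of higher genes among those called from 81.5% to 87.6%. The ribosomal protein median was -0.53 with the first and -0.34 with the second array. With the 50th percentile filter the median of G1 regulators was 0.89.

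With the replicate block on the WT pools, 243 genes were higher and 45 lower, 153 and 34 of them shared with the fit without it; the pools share only a number.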

Other observations

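The 17 genes called in Rptor KO QSC against WT QSC by limma include Anln and Cks2, genes of cell division beyond the fixed list. These and Lsm6, a gene of RNA processing, were chosen here after their values were seen. Anln, the cytokinesis scaffold anillin, had a log2 difference of -1.83 (adjusted p = 0.00945 in limma), with the TSC1 KO pool at 8.47, the Rptor KO pool at 6.15 and the WT QSC pools between 7.93 and 8.06. Cks2, a subunit that binds cyclin-dependent kinases, had a difference of -1.69 (adjusted p = 0.0156 in limma), with the pools at 9.08 and 7.15. Lsm6, a component of RNA-binding Lsm rings, had a difference of -1.50 (adjusted p = 0.0230 in limma), with the pools at 9.24 and 7.48. In each of the 3 genes the TSC1 KO pool was above and the Rptor KO pool below all WT QSC pools.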
